A study of Mus musculus with 21 samples.

Results

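The subject here is the genotype by cysteine diet interaction in mouse liver, that is, how far the response to a diet without cysteine depends on the *Cse* gene. For each gene the interaction is a difference of differences on the log2 scale, (KO noCys − KO CTR) − (WT noCys − WT CTR). It was built from all replicates that carry those 4 group names in their titles, 14 of the 21 poly(A) RNA sequencing libraries of the series. A positive value means that the diet effect was larger, or less negative, in the KO. The libraries enter by their titles alone.

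KO animals (labelled cse) had lost *Cse*, which encodes the enzyme cystathionine γ-lyase and is now named *Cth*, on a 129/C57BL/6 background. The other genotype is labelled WT, but the study's text describes its comparison animals as *Cse*+/- heterozygotes, and WT is kept here only because the labels use it. Both genotypes ate a defined amino acid diet (CTR, based on 5CC7) or the same diet lacking cysteine (noCys), in which the other amino acids were raised in proportion. There were 3 WT CTR, 4 KO CTR, 4 WT noCys and 3 KO noCys libraries, each titled as a biological replicate. Per the labels and the study's methods the mice were male, at least 9 weeks old and calorie restricted, on the control diet first, and livers were taken within days of the switch. The knockout was not confined to the liver, so the comparison does not separate the liver's own enzyme from that of other organs.

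Cysteine can be eaten or made from methionine by transsulfuration, in which cystathionine β-synthase makes cystathionine and cystathionine γ-lyase splits it to release cysteine. The liver spends cysteine on protein, on the antioxidant tripeptide glutathione, on coenzyme A and on taurine. An uncharged tRNA activates the kinase GCN2, and the resulting integrated stress response (ISR) raises translation of ATF4, which drives genes for amino acid synthesis, transport and tRNA charging. Oxidants and electrophiles release the transcription factor NRF2 from KEAP1, and NRF2 drives the oxidative stress response (OSR), including glutathione S-transferases and export pumps. Cholesterol synthesis genes are driven by SREBP2, the product of *Srebf2*.

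Of 14370 genes tested, 1069 had a diet effect that differed between the genotypes at an adjusted p under 0.05 in edgeR's quasi-likelihood test, which is 7.44% of all genes tested. The effect was larger in the KO for 512 genes (3.56%) and smaller in the KO for 557 (3.88%), and 3308 genes had an unadjusted p under 0.05. With libraries scaled by their totals alone, 855 were larger and 323 smaller, and the median of all genes was 0.16. The interaction exceeded 1 on the log2 scale for 220 of the former and fell below −1 for 283 of the latter. The median over all genes was 0.00. The count moved by more than 1.5 times when single libraries were left out: it was 636 without WT CTR replicate 1, 693 without WT CTR replicate 2, 428 without KO noCys replicate 3 and 698 without KO noCys replicate 4. All 1069 genes kept their sign in each of the 14 fits that left out 1 library, and 381 were called in every one of them.

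Most of the interaction came from a response in the KO. Among the 1069 genes, 905 passed the test for a diet effect in the KO and not in WT, 23 in WT and not in the KO, 8 in both in opposite directions, 2 in both in the same direction, and 131 in neither. The diet effect was the larger one in absolute size in the KO for 922 genes and in WT for 147, with medians of 0.75 in the KO and 0.22 in WT on the log2 scale. On the CTR diet only 8 of the 1069 genes differed between KO and WT, and on the noCys diet 1021 did. Over all genes, 20.2% passed the test for a diet effect in the KO (10.6% higher and 9.59% lower on noCys) and 0.661% in WT (0.39% higher and 0.271% lower). Between the genotypes 0.32% passed on CTR (0.0696% higher and 0.251% lower in the KO) and 28.2% on noCys (14.8% higher and 13.4% lower). These comparisons share libraries with the interaction and with each other. Of the 2906 genes changed by the diet in the KO, 915 (31.5%) also passed the interaction test, so for the rest a difference between the genotypes was not shown.

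**Figure D1:**
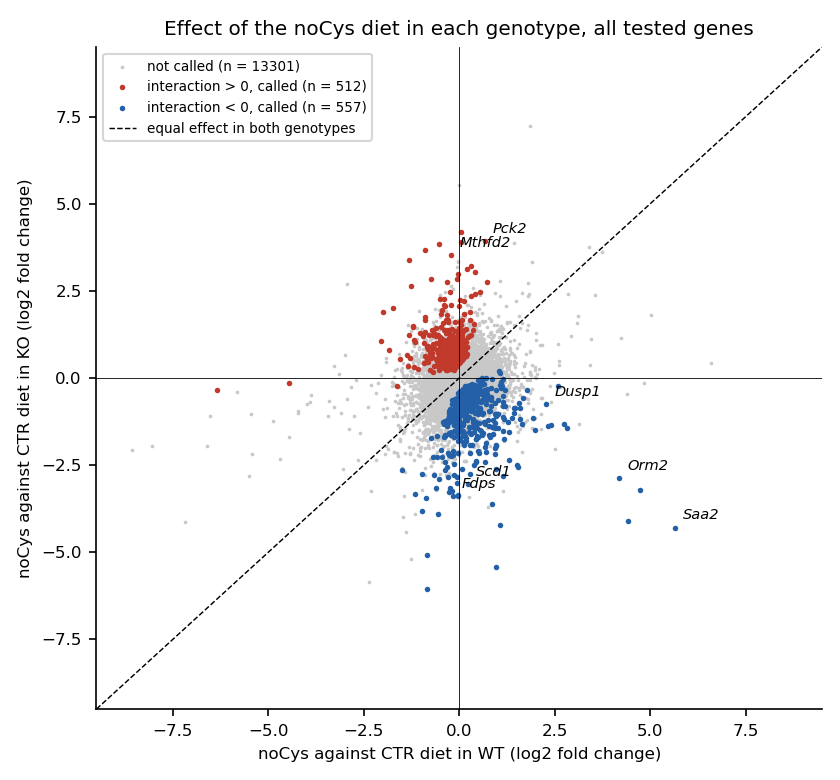
Log2 fold change of noCys against CTR in WT (x axis) and in KO (y axis) for all 14370 tested genes, with genes above the dashed line of equal effect having a positive interaction. The 512 red and 557 blue genes passed the interaction test and spread mostly along the y axis, whereas *Saa2*, *Orm2* and *Dusp1* lie far to the right, where WT rose.

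Library totals ran from 8889951 to 27230852 counts. Genes of small and ribosomal RNA took 7.96% of counts in WT CTR replicate 3 and between 0.129% and 0.383% in the other 13 libraries. Liver identity was clear from hepatocyte markers, whose summed level was 61915 to 85550 CPM (here counts scaled to the library total, while levels of single genes below are also TMM-scaled) in KO noCys and 82888 to 110453 CPM in the other groups. All 10 hepatocyte markers had a negative interaction, with a median of −0.44, and 1 passed the test, *Ttr* for the carrier protein transthyretin (−0.93). Over all genes 3.88% were smaller in the KO and 3.56% larger. Of 12 Kupffer cell and leukocyte markers none passed, but 11 had a negative interaction, with a median of −0.59. None of 9 endothelial and 9 stellate cell markers passed, with medians of −0.35 and −0.20. Erythroid markers summed to 138 to 176 CPM in KO noCys and 156 to 351 CPM elsewhere, and 2 of 5 were smaller in the KO, against 3.88% of all genes. That count was 0 without KO noCys replicate 3. Cholangiocyte markers summed to 17.3 to 21.1 CPM in KO noCys and 19.8 to 61.0 CPM elsewhere, with 1 of 6 smaller in the KO, against 3.88% of all genes. None passed without KO noCys replicate 3 or with libraries scaled by their totals alone. Summed adipocyte markers were at 18.3 to 38.8 CPM in KO noCys, highest in replicate 3, and at 13.7 to 27.4 CPM elsewhere. Exocrine pancreas markers were at 15.1 to 17.7 CPM in KO noCys and 11.4 to 22.8 CPM elsewhere, and skeletal muscle markers at 0.787 to 4.52 CPM, highest in replicate 4, and 0.678 to 1.49 CPM elsewhere. Of these lists, *Lep* of adipocytes, *Prss1*, *Cpa1*, *Pnlip* and *Amy2a5* of the exocrine pancreas, and *Myh4*, *Tnnc2* and *Myl1* of skeletal muscle were at 0 in all 14 libraries. In bulk liver, fewer cells of a type and less RNA per cell cannot be told apart, and the part of these marker levels in the results below was not tested.

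The targeted gene followed its labels. *Cth* (chromosome 3, 157894248 to 157925077, GRCm38) was at 286, 221 and 157 CPM in WT CTR and at 260, 263, 253 and 225 CPM in WT noCys. In KO CTR it was at 14.6, 10.5, 11.7 and 15 CPM, and in KO noCys at 8.12, 6.34 and 7.33 CPM. All KO libraries lay far below all WT libraries, with a log2 difference of −4.11 ± 0.31 (SE) on CTR. The residual level was lower on noCys than on CTR in every KO library, but the KO diet effect of −0.84 did not pass the test (adjusted p = 0.0770), and the interaction of −1.01 ± 0.44 did not either (adjusted p = 0.165). In a fit of the 4 groups only it was −1.01 with an adjusted p of 0.0231.

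Short sequence elements bound by the ATF4, NRF2 and SREBP2 families were searched for in the 250 bases before the gene starts given by RefSeq (GRCm38.p6), on both strands, since these factors are the usual drivers of the gene groups described below. Matched by symbol, 10186 tested genes had such a sequence. The letters TGATGNAA, the core of the C/EBP-ATF4 element, were present in 7 of 19 ISR regulators and effectors, in 3 of 13 genes of amino acid and one-carbon synthesis and in 256 of all 10186 genes (2.51%). Of the members with an interaction, 2 of 5 ISR genes and 1 of 5 synthesis genes held these letters. For the antioxidant response element core TGACNNNGC the numbers were 7 of 21 NRF2 genes, 4 of 20 glutathione S-transferases and 1415 of all genes (13.9%). Among the members with an interaction, 1 of 9 NRF2 genes and 0 of 7 transferases held it. The sterol element core TCACNCCAC was present in 1 of 17 cholesterol genes, in 1 of the 14 with an interaction and in 137 of all genes (1.34%). A match is a description of the letters and not evidence of a bound site, and no match says only that the letters are not in this window.
The 3 sequences below are the called member of smallest adjusted p whose promoter held each motif, with the match in capitals. *Pck2* lies on the plus strand (chr14:55540016-55540265), and the match is on the opposite strand. *Abcc4* lies on the minus strand (chr14:118676932-118677181), and this start is 1 of 2 listed and falls inside the GENCODE gene body. *Hmgcs1* lies on the plus strand (chr13:119690101-119690350).
Pck2: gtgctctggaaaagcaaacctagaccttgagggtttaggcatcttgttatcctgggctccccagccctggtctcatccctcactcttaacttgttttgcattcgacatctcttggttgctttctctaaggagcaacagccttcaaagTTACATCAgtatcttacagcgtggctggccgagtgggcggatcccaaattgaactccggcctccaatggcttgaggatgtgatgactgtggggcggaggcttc
Abcc4: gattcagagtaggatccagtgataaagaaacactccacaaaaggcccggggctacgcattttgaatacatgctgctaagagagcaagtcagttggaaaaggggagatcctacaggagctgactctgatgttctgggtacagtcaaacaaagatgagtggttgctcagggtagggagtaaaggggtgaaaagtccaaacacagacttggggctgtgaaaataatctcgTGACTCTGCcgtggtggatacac
Hmgcs1: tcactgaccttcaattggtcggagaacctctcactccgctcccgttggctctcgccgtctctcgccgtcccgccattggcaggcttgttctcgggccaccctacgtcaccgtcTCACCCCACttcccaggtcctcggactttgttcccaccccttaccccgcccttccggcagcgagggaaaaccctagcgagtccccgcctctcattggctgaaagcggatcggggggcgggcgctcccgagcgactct

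A set of glutathione S-transferases responded more strongly to the diet in the KO, led by members of the μ class. *Gstm1*, which conjugates glutathione to electrophiles, had the smallest adjusted p of all protein-coding genes. It was at 1242, 1022 and 1325 CPM in WT CTR and at 813, 1005, 1112 and 880 CPM in WT noCys. The KO CTR libraries were at 1157, 1049, 993 and 972 CPM and the KO noCys libraries at 3871, 3899 and 3144 CPM, above all 11 others. Its interaction was 2.13 ± 0.18 (adjusted p = 2.62e-06), made of a KO effect of 1.80 and a WT effect of −0.33.
*Gstm3* reached 182, 153 and 95.4 CPM in KO noCys against 12 to 25.7 CPM in the other groups, an interaction of 2.91 ± 0.44. *Gstm4* (1.93), *Gstm2* (1.51), *Gsta2* (2.02) and *Gstp3* (1.49) were also larger in the KO, each called in all 14 fits that left out 1 library. Of 22 transferases tested, 7 were larger and 0 smaller in the KO, against 3.56% and 3.88% of all genes. The list median was 0.08 against 0.00 for all genes, and leaving out single libraries gave 6 to 9 larger and 0 to 3 smaller, with 3 smaller without KO noCys replicate 1 and 2 without WT noCys replicate 1. Another test, limma-voom with quality weights (voom below), called 10 larger and 4 smaller. Not all of the family followed, and 10 of the 22 values were below 0. *Gsta3*, an abundant α class member, had −0.26 and *Mgst1*, the microsomal form, −0.37, and neither passed the test. *Gsta1* had 2.85 at an adjusted p of 0.0553, on levels of at most 8.12 CPM.
*Gstp1* had another starting point, with lower levels in the KO on CTR. It was at 914, 960 and 782 CPM in WT CTR, where KO CTR had 327, 356, 575 and 649 CPM and KO noCys 991, 1043 and 912 CPM. WT noCys libraries were at 945, 1189, 967 and 903 CPM, so KO noCys lay within the WT range. Its interaction was 0.87 ± 0.26 (adjusted p = 0.0470) and was called in 3 of the 14 fits that left out 1 library. Members of these families are near copies of each other, and how the authors' counting treated reads shared between them is not given, so the value of any single member is uncertain.

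Of 25 NRF2 regulators and targets other than transferases, 11 were larger and 0 smaller in the KO, against the same shares of all genes, with a list median of 0.63. This count was 10 or 11 in every fit that left out 1 library. Export pumps were among the clearest. *Abcc3*, a basolateral pump for conjugates and bile acids, was at 501, 471 and 414 CPM in KO noCys and at 154 to 220 CPM in the rest, an interaction of 1.44 ± 0.16 (adjusted p = 2.63e-05). *Abcc4*, a pump of the same family, rose from 1.28 to 2.57 CPM in KO CTR to 8.46, 14.2 and 10.5 CPM in KO noCys, with 1.39 to 2.33 CPM in WT. Its interaction was 2.70 ± 0.41.
*Nqo1*, the quinone reductase often used as an NRF2 readout, was at 23.2, 22.9 and 23.7 CPM in KO noCys and at 4.25 to 7.21 CPM elsewhere. The groups did not overlap, and the interaction was 1.62 ± 0.28. *Srxn1*, which repairs oxidized peroxiredoxins, had 1.38 ± 0.22, and the aldehyde oxidase *Aox1* had 1.58 ± 0.26. *Ephx1*, microsomal epoxide hydrolase, had 1.43, *Blvrb*, biliverdin reductase B, 0.73, and both ferritin chains, *Fth1* (0.82) and *Ftl1* (0.71), were larger in the KO as well.
The glutathione-making and thioredoxin members of the same list did not pass. *Gclc* and *Gclm*, the catalytic and modifier subunits of glutamate-cysteine ligase, had 0.48 ± 0.26 and −0.01 ± 0.19. Thioredoxin reductase *Txnrd1* had 0.24 ± 0.15 and haem oxygenase *Hmox1* −0.22 ± 0.40. *Nfe2l2*, the gene for NRF2 itself, had 0.08 ± 0.22. Glutathione reductase *Gsr* was called at 0.74 (adjusted p = 0.0458), but in 4 of the 14 fits that left out 1 library.
Of 10 pentose phosphate and NADPH genes, 2 were smaller and 0 larger in the KO, against 3.88% and 3.56% of all genes, while the median was 0.18 and 6 of the 10 values were above 0. *G6pdx*, glucose-6-phosphate dehydrogenase, was at 1.58, 1.76 and 1.61 CPM in KO noCys and at 3.60 to 7.72 CPM in KO CTR. Its interaction was −1.93 ± 0.46. The KO noCys libraries lay below all KO CTR libraries but not below all WT libraries. Cytosolic isocitrate dehydrogenase *Idh1*, which also makes NADPH, was at 190, 152 and 157 CPM in KO noCys against 251 to 338 CPM elsewhere (−0.86 ± 0.16). The other 8 genes did not pass.

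**Figure D2:**
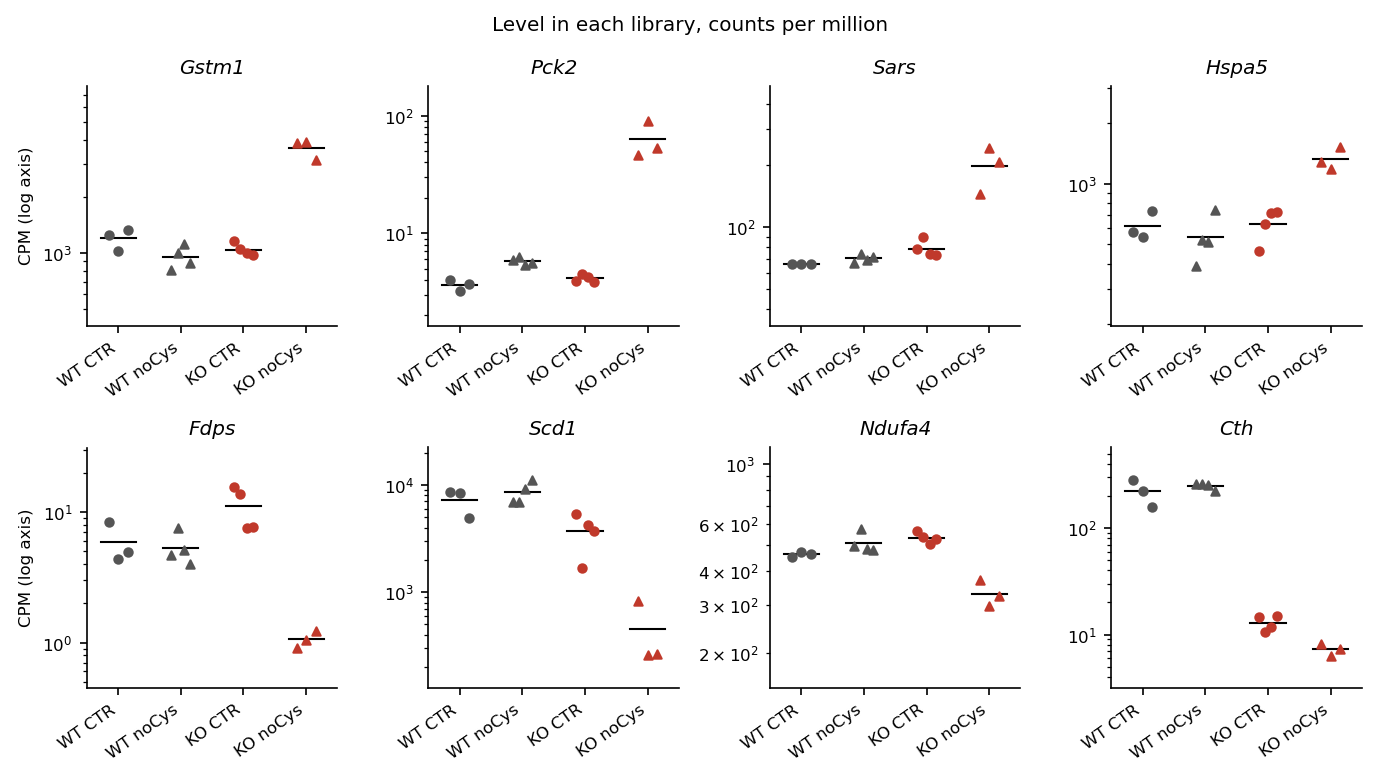
CPM on a log axis in each of the 14 libraries for 8 genes, with grey for WT, red for KO, circles for CTR, triangles for noCys and a bar for the group mean. The 3 KO noCys libraries stand apart from the other 11 in *Gstm1*, *Pck2*, *Sars*, *Hspa5*, *Fdps*, *Scd1* and *Ndufa4*, while *Cth* separates the genotypes on both diets.

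Genes of amino acid and one-carbon synthesis had the highest list median. Of 14 tested, 5 were larger in the KO and 0 smaller, against 3.56% and 3.88% of all genes, with a median interaction of 1.57, from 2.15 in the KO and 0.13 in WT. *Mthfd2*, the mitochondrial folate enzyme, was at 6.77, 36.6 and 27.7 CPM in KO noCys and at 0.741 to 3.43 CPM in all other libraries. Its interaction was 3.75 ± 0.77 (adjusted p = 0.00623) and was called in all 14 fits that left out 1 library.
*Psat1*, of serine synthesis, was at 47.5, 65.5 and 49.0 CPM in KO noCys against 1.07 to 5.96 CPM in KO CTR and 0.232 to 0.817 CPM in WT. Its interaction of 4.12 ± 0.97 lost the call without WT CTR replicate 1 (adjusted p = 0.0738) or 2 (adjusted p = 0.0776). *Pycr1*, of proline synthesis, had 2.91 ± 0.70 and lost it without WT CTR replicate 1 or 3. *Bcat2* (1.06), of branched-chain amino acid transamination, and *Mthfd1l* (2.06), a mitochondrial folate enzyme, were called in 10 and 9 of the 14. The count for this list was 3 without WT CTR replicate 1, WT CTR replicate 3 or KO noCys replicate 3, and 2 without WT CTR replicate 2. It was 6 without WT noCys replicate 1, 7 without KO noCys replicate 1 and 8 with voom.
*Asns*, asparagine synthetase, did not pass the test although the KO effect was 2.78. Its levels were 146, 181 and 147 CPM in KO noCys and 14.3, 31.2, 17.5 and 29.0 CPM in KO CTR, against 1.91, 1.62 and 1.16 CPM in WT CTR. WT noCys libraries were spread from 0.950 to 6.18 CPM. The gene was thus already higher in the KO on the control diet, by 3.86 ± 0.48 on the log2 scale, and the interaction was 1.70 ± 0.66 (adjusted p = 0.125). *Phgdh*, the first enzyme of serine synthesis, had 3.25 ± 1.28 on levels of at most 2.05 CPM.

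Of 21 ISR regulators and effectors, 6 were larger and 0 smaller in the KO, against 3.56% and 3.88% of all genes, with a median of 0.58. Without KO noCys replicate 3 the count was 4 and the median 0.25. The count was also 4 without WT CTR replicate 3. *Pck2*, mitochondrial phosphoenolpyruvate carboxykinase and the holder of the first promoter shown above, was at 46.5, 89.3 and 52.7 CPM in KO noCys. The KO CTR libraries had 3.84 to 4.50 CPM, with 3.25 to 4.02 CPM in WT CTR and 5.41 to 6.31 CPM in WT noCys. Its interaction was 3.26 ± 0.35 (adjusted p = 1.82e-05), and the WT effect of 0.66 did not pass the test.
*Atf5*, a transcription factor of the ATF4 family, was at 1239, 2165 and 1794 CPM in KO noCys against 299 to 490 CPM elsewhere, an interaction of 2.21 ± 0.28. *Eif4ebp1*, an inhibitor of cap-dependent translation, had a small but tight value of 0.64 ± 0.14. *Trib3*, a pseudokinase induced by stress, had 2.44 ± 0.57, and 1.72 (adjusted p = 0.0677) without KO noCys replicate 3, where it was at 225 CPM. *Nupr1*, a stress-induced chromatin protein, was at 5.75, 59.7 and 42.9 CPM in KO noCys (3.85 ± 0.91). *Ddit3*, which encodes CHOP, was at 8.80, 22.5 and 19.4 CPM there, so replicate 1 lay within the 7.88 to 12.5 CPM of the other groups. Its interaction was 1.26 ± 0.36, called in 4 of the 14 fits that left out 1 library.
The transcript of *Atf4* itself, a gene known for control at translation, did not pass the test (0.16 ± 0.26, adjusted p = 0.752). The hormones of the response were variable. *Fgf21* was at 6.88, 43.3 and 34.8 CPM in KO noCys, but also at 3.78 and 19.4 CPM in KO CTR replicates 1 and 2 against 0.787 and 0.823 CPM in replicates 3 and 4. Its interaction was 1.89 ± 1.72 (adjusted p = 0.550). *Gdf15*, a hormone that suppresses appetite, was at 3.61, 19.5 and 17.1 CPM in KO noCys and at 2.67 to 8.33 CPM in WT noCys against 0.847 to 2.44 CPM in WT CTR. The WT noCys and WT CTR ranges did not overlap, and the interaction was 0.58 ± 0.86 (adjusted p = 0.736).

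Aminoacyl-tRNA synthetases charge tRNAs with amino acids. All 20 cytosolic enzymes tested had a positive interaction, with a median of 0.73, and 11 passed the test, against 3.56% of all genes larger in the KO. In the KO 19 rose on the diet, against 10.6% of all genes, and in WT none passed. *Gars* was at 110, 150 and 126 CPM in KO noCys and at 35.3 to 54.4 CPM elsewhere (1.45 ± 0.17, adjusted p = 7.53e-05). *Sars* was at 146, 244 and 207 CPM against 66.0 to 89.3 CPM (1.25 ± 0.17). *Vars* (0.82), *Farsb* (0.78), *Nars* (0.68) and *Iars* (1.16) were also called in all 14 fits that left out 1 library.
*Cars* charges the tRNA for cysteine itself. It was at 42.2, 75.9 and 62.9 CPM in KO noCys, at 21.5 to 44.1 CPM in KO CTR and at 14.8 to 19.8 CPM in WT, so KO noCys replicate 1 lay within the KO CTR range. Its interaction was 1.09 ± 0.30 (adjusted p = 0.0337), called in 3 of the 14. *Qars* (0.16) and *Aars* (0.28) had the smallest values. The list's count fell to 6 without KO noCys replicate 3 and to 7 without WT noCys replicate 1 or 2.

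Of 21 amino acid carriers tested, 3 were larger in the KO and 0 smaller, against 3.56% and 3.88% of all genes. Their median was 0.07, with 11 values above 0 and 10 below. The count was 1 without any 1 of the 3 WT CTR libraries or KO noCys replicate 3, and 5 without KO noCys replicate 1. Voom called 4 larger and 3 smaller. *Slc3a2*, the heavy chain shared by several exchangers, including the cystine and large neutral amino acid carriers, was at 54.8, 163 and 118 CPM in KO noCys against 30.4 to 44.3 CPM elsewhere (1.70 ± 0.30). *Slc7a1*, the cationic amino acid carrier, was at 1.69, 12.4 and 6.75 CPM there and at 0.285 to 0.999 CPM elsewhere. Its interaction of 2.94 ± 0.79 lost the call without any 1 of the 3 WT CTR libraries or KO noCys replicate 3. *Slc38a7*, a glutamine carrier (0.64 ± 0.19) was called in 2 of the 14. *Slc7a5*, a light chain that pairs with *Slc3a2*, had 1.6 ± 0.61 (adjusted p = 0.119).

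The 3 KO noCys libraries were not alike in the ISR genes. In all 11 synthetases, all 6 ISR regulators and effectors, all 5 synthesis genes and all 3 carriers that were called, replicate 1 had the lowest level of the 3. Replicate 3 had the highest in 24 of these 25 genes counted list by list, as 11, 6, 5 and 2. The OSR genes had no such order: among the 11 NRF2 genes the lowest library was replicate 1 in 5, replicate 3 in 3 and replicate 4 in 3, and among the 7 transferases it was replicate 4 in 5. Leaving out replicate 1 raised the number of genes with an interaction to 1399, and leaving out replicate 3 lowered it to 428. Replicate 1 also had the fewest counts of the 3, at 8889951.

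Chaperones and other genes of the unfolded protein response in the endoplasmic reticulum (ER) were larger in the KO in 9 of 26 cases and smaller in 0, against 3.56% and 3.88% of all genes, with a median of 0.59. *Hspa5*, the main ER chaperone BiP, was at 1279, 1179 and 1527 CPM in KO noCys. It was at 542 to 727 CPM in WT CTR, 391 to 741 CPM in WT noCys and 461 to 723 CPM in KO CTR. Its interaction was 1.25 ± 0.29 (adjusted p = 0.0134). *Derl1*, of ER-associated degradation, had 0.83 ± 0.14, and both were called in all 14 fits that left out 1 library.
*Pdia4*, a disulfide isomerase, had 1.10 ± 0.27 and lost its call if KO noCys replicate 4 was left out (adjusted p = 0.0536). *Hyou1*, a large ER chaperone, had 1.39 ± 0.34 and was not called without that library or without WT CTR replicate 3. *Hsp90b1* (0.38), *Pdia3* (0.22), *Canx* (0.05) and *P4hb* (−0.05), all abundant folding factors, did not pass. Here the highest of the 3 libraries was replicate 4 in 8 of the 9 called genes. The count fell to 2 without KO noCys replicate 4 and to 3 without WT CTR replicate 3. It was 4 without WT CTR replicate 1 or WT noCys replicate 1, 2 or 3 and 5 without KO CTR replicate 1 or KO noCys replicate 3, and it rose to 14 when libraries were scaled by their totals alone.

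**Figure D3:**
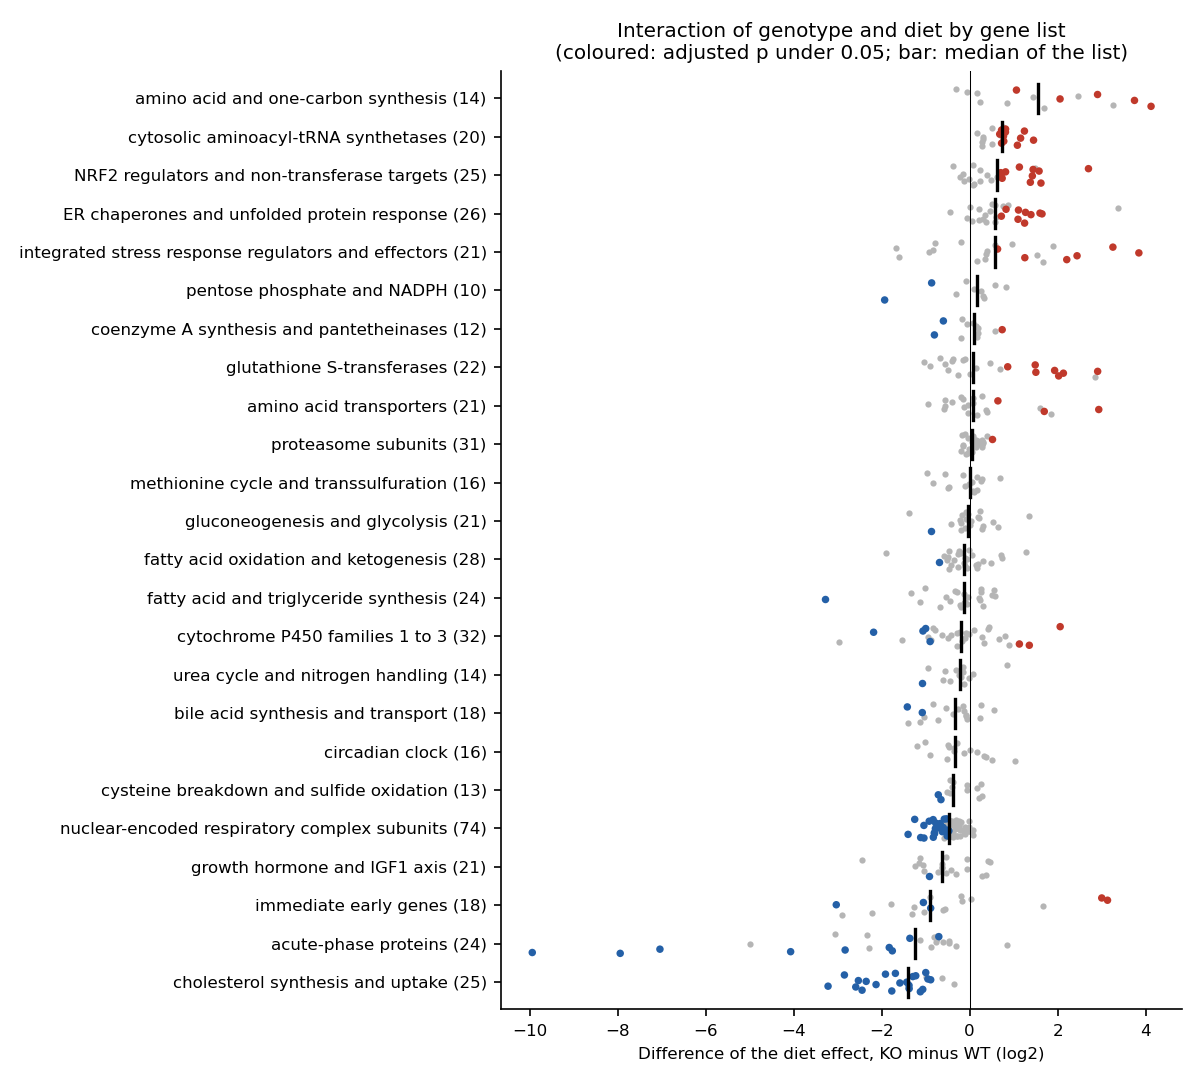
Interaction on the log2 scale of every tested member of 24 gene lists, ordered by the list median (black bar), with the number tested in brackets and members at an adjusted p under 0.05 in red (larger in KO) or blue (smaller in KO). Amino acid and one-carbon synthesis has the highest median, at 1.57, and cholesterol synthesis and uptake the lowest, at −1.41.

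Cholesterol synthesis and uptake had the lowest list median and the largest share of called members. Of 25 genes tested, 21 were smaller in the KO and 0 larger, against 3.88% and 3.56% of all genes, and the median interaction was −1.41, from −1.68 in the KO and −0.28 in WT. In the KO 23 of the 25 fell on the diet, against 9.59% of all genes, and in WT none passed the test. The count ranged from 16 to 22 in the fits that left out 1 library and was 16 without KO noCys replicate 3.
*Hmgcs1*, the synthase at an early step and the third promoter shown above, was at 47.9, 35.5 and 38.4 CPM in KO noCys against 170 to 398 CPM in KO CTR. In WT it was at 113 to 184 CPM on CTR and 58.9 to 101 CPM on noCys, so both genotypes were lower on noCys. The WT effect of −0.98 did not pass the test, and the interaction was −1.77 ± 0.38.
*Fdps*, farnesyl diphosphate synthase, was at 0.902, 1.05 and 1.22 CPM in KO noCys against 7.56 to 15.7 CPM in KO CTR and 4.03 to 8.37 CPM in WT. Its interaction was −3.22 ± 0.46 (adjusted p = 0.000418). How reads shared with copies of this gene were counted is not given. Among the later steps, *Nsdhl*, a sterol dehydrogenase, had the smallest adjusted p of the list. It was at 6.65, 5.58 and 6.04 CPM in KO noCys, 40.1 to 69.4 CPM in KO CTR and 19.9 to 41.1 CPM in WT (−2.53 ± 0.31, adjusted p = 8.41e-05). *Sqle*, squalene epoxidase, had −2.13, *Msmo1* −2.35 and *Ebp*, the sterol isomerase, −0.95 ± 0.13.
Regulators of the pathway fell as well. *Srebf2* was at 27.1, 23.3 and 23.1 CPM in KO noCys against 34.8 to 54.3 CPM elsewhere (−1.0 ± 0.16). *Insig1*, which retains SREBPs in the ER, had −1.91. The members that did not pass included *Mvd* (−1.41), *Sc5d* (−0.63) and *Lss* (−0.35), and all 25 genes of the list had a negative value.

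**Figure D4:**
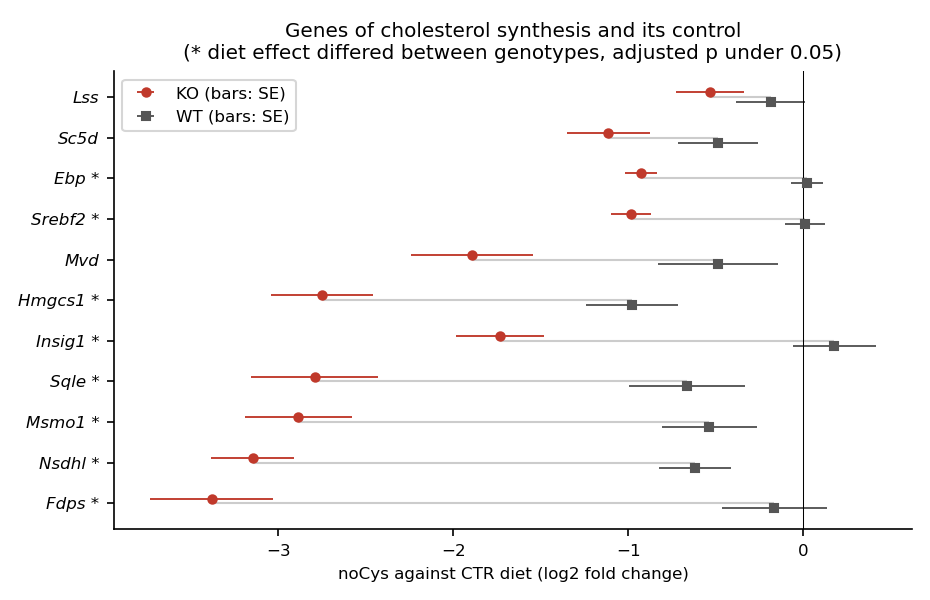
Log2 fold change of noCys against CTR with its SE in KO (red circles) and WT (grey squares) for 11 genes of the list named in the text, ordered by interaction, with an asterisk where the interaction passed the test. The KO value lies to the left of the WT value for all 11 genes, and *Fdps* has the widest gap, at −3.22.

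Of 24 genes of fatty acid and triglyceride synthesis, 1 was smaller in the KO, against 3.88% of all genes, 0 were larger and the median was −0.13. The number smaller was 2 without WT CTR replicate 1 and 3 with DESeq2 or voom. In the KO 6 of the 24 fell on the diet and 1 rose, against 9.59% and 10.6% of all genes. The 1 was *Scd1*, stearoyl-CoA desaturase, at 836, 258 and 264 CPM in KO noCys. KO CTR had 5362, 1686, 4198 and 3741 CPM, with 4917 to 8603 CPM in WT CTR and 6881 to 11148 CPM in WT noCys. The interaction was −3.28 ± 0.75 (adjusted p = 0.0120). *Fasn*, fatty acid synthase, had −0.06 ± 0.41 and *Acaca*, acetyl-CoA carboxylase 1, 0.31, while *Srebf1*, the regulator of this arm, had −0.33 ± 0.50.
That median was 0.03 with libraries scaled by their totals alone, and so was that of the next list. Fatty acid oxidation and ketogenesis gave 1 smaller and 0 larger of 28, with a median of −0.12, against 3.88% of all genes smaller and 3.56% larger. The number smaller was 4 without KO noCys replicate 1, 2 without KO CTR replicate 1 or WT noCys replicate 3, and 0 without KO noCys replicate 3. DESeq2 called 3 smaller, and voom 5 smaller and 1 larger. The gene called in the fit of all libraries was *Hadh*, a short-chain hydroxyacyl-CoA dehydrogenase, at 288, 225 and 245 CPM in KO noCys against 333 to 447 CPM elsewhere (−0.70 ± 0.16), and it lost its call if KO noCys replicate 3 was left out (adjusted p = 0.0525). *Cpt1a*, the gate for mitochondrial fatty acid entry, had 0.17 ± 0.19.

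Nuclear-encoded subunits of the respiratory complexes had small and mostly negative values. Of 74 tested, 26 were smaller in the KO and 0 larger, against 3.88% and 3.56% of all genes, the median was −0.46, and 72 were below 0. In the KO 52 fell on the diet, against 9.59% of all genes, with a median of −0.44, and in WT the median was 0.00. *Ndufa4* was at 371, 297 and 325 CPM in KO noCys and at 452 to 576 CPM in the other groups (−0.82 ± 0.14, adjusted p = 0.00169). *Ndufa1*, of complex I, was at 84.0, 63.2 and 77.0 CPM against 128 to 184 CPM (−1.04 ± 0.18).
*Atp5k*, a small subunit of ATP synthase, was at 124, 86.3 and 130 CPM against 197 to 341 CPM (−1.25 ± 0.24), and *Ndufa3* had −1.11 ± 0.22. Some core subunits, picked after their values were seen, lay nearer 0: *Ndufs1* and *Ndufs3* had 0.00, *Uqcrc2* −0.01 and *Atp5a1* −0.20, and none of these passed. KO noCys replicate 3 had the lowest level of its group in 24 of the 26 called genes. The count was 10 without that library, 13 without WT CTR replicate 1, 16 without WT CTR replicate 2 or WT noCys replicate 2 and 17 without KO CTR replicate 1 or 3. With libraries scaled by their totals alone it was 12 and the median −0.32, since that scaling moved the median of all genes from 0.00 to 0.16. Hepatocyte markers, as given above, had a median interaction of −0.44, from median diet effects of −0.01 in the KO and 0.22 in WT. Their part in the respiratory values was not tested.

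Acute-phase proteins, which the liver secretes in inflammation, were a group in which WT responded as well. Of 24 tested, 9 were smaller in the KO and 0 larger, against 3.88% and 3.56% of all genes, with a median of −1.24. The median diet effect was 1.11 in WT, where 5 rose, against 0.39% of all genes. It was −0.38 in the KO, where 7 fell and 1 rose, against 9.59% and 10.6%. *Saa2*, a serum amyloid A, was at 24.5, 24.0 and 21.8 CPM in WT CTR and at 3950, 415, 278 and 60.5 CPM in WT noCys. In the KO it was at 49.4, 23.9, 44.1 and 358 CPM on CTR and at 4.17, 4.67 and 9.06 CPM on noCys. The diet ranges did not overlap in either genotype and went in opposite directions, with an interaction of −9.94 ± 1.87 (adjusted p = 0.00338), the lowest among the named genes. The WT effect of 5.65 by itself had an adjusted p of 0.0567, and WT noCys replicate 1 was far above the others.
*Saa1* had the same shape, from 180 to 4780 CPM in WT noCys against 59.3 to 65.4 CPM in WT CTR, and from 11.2 to 45.1 CPM in KO noCys against 78.0 to 718 CPM in KO CTR (−7.94 ± 1.64). *Saa1* and *Saa2* are near copies that may share reads.
The orosomucoids passed the test in both genotypes with opposite signs. *Orm1* was at 573, 643 and 700 CPM in WT CTR and at 2666, 1378, 1283 and 929 CPM in WT noCys. KO CTR had 830, 696, 718 and 1151 CPM, and KO noCys had 373, 248 and 257 CPM. The WT effect was 1.29 ± 0.27 and the KO effect −1.54 ± 0.27, an interaction of −2.83 ± 0.38 (adjusted p = 0.000233). *Orm2* had effects of 4.17 in WT and −2.86 in the KO and an interaction of −7.04 ± 1.16. *Hp*, haptoglobin, had −1.83 ± 0.40, with neither effect passing by itself.
These 5 genes, *Saa1*, *Saa2*, *Orm1*, *Orm2* and *Hp*, were called in all 14 fits that left out 1 library, including those without WT noCys replicate 1. The other 4 were less stable: *Itih4* (−1.36, called in 11), *Saa4* (−1.76, in 10), *Saa3* (−4.07, in 9, and −2.21 without WT noCys replicate 1) and *Cp*, ceruloplasmin (−0.70, in 6). The list's count was 5 without WT CTR replicate 1 or KO noCys replicate 3, and 6 without KO noCys replicate 4. It was 13 without KO noCys replicate 1, in the fit of the 4 groups and with DESeq2, and 14 with voom or no filter. *Lcn2* (−4.99, adjusted p = 0.0728) and the metallothionein *Mt1* (−2.34, adjusted p = 0.0688) missed the threshold. *Mt1* was at 72.1 to 199 CPM in WT CTR and at 413 to 1034 CPM in all other libraries. *Crp* had −0.31 ± 0.20 and did not pass. No Kupffer cell or leukocyte marker passed the test, but 11 of 12 had a negative interaction, and the median diet effect was 0.43 in WT and −0.19 in the KO. Their summed level was 126 to 216 CPM in WT noCys, 98.6 to 179 CPM in WT CTR, 103 to 238 CPM in KO CTR and 121 to 165 CPM in KO noCys, so the groups overlapped. Their part in the acute-phase values was not tested.

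Other genes also turned in opposite directions. *Bloc1s1*, a subunit of a lysosome biogenesis complex, rose in WT from 4.34, 5.26 and 5.34 CPM to 8.46, 10.2, 9.40 and 9.98 CPM and fell in the KO from 7.13 to 8.07 CPM to 2.59, 3.53 and 4.82 CPM (−1.96 ± 0.26). It overlaps *Rdh5*, and the strand setting of the counting is not given. The same limit holds for *Pck2*, *Mthfd2*, *Atf5*, *Fdps*, *G6pdx*, *Ndufa3*, *Dusp1*, *Arhgef2* and *Cth*, each of which overlaps another annotated gene. *Dmap1*, a chromatin protein, did the reverse. It fell in WT from 14.8, 15.1 and 16.1 CPM to 9.04, 10.6, 10.5 and 11 CPM and rose in the KO from 12.6 to 15.4 CPM to 16.2, 19.3 and 17.1 CPM (0.96 ± 0.19).
*Dusp1*, a phosphatase that switches off MAP kinases, passed the test for a diet effect in WT only. It was at 29.2, 21.3 and 31.8 CPM in WT CTR and at 71.2, 137, 207 and 119 CPM in WT noCys, and at 50.6 to 88.0 CPM in KO CTR and 24.4 to 45.8 CPM in KO noCys. Its interaction was −3.03 ± 0.60 (adjusted p = 0.00473), called in all 14. *Nav2* fell in WT from 43.8 to 66.7 CPM to 17.6 to 19.9 CPM and was at 20.5 to 36.1 CPM in KO CTR (1.40 ± 0.36). The glucose carrier *Slc2a1* (−1.18) and *Dop1b* (−1.21) rose in WT, and lost the interaction call in 8 and 10 of the 14 fits.
Immediate early genes, which respond within minutes to stimuli, gave 2 larger and 3 smaller of 18, with a median of −0.90, against 3.56% and 3.88% of all genes. Without KO noCys replicate 3 the numbers larger and smaller were 0 and 1, and *Dusp1* was the member called in all 14 fits that left out 1 library. Besides *Dusp1*, the smaller were *Ier2* (−0.88, called in 8 of the 14) and *Zfp36* (−1.05, in 6), and the larger were *Gadd45a* and *Myc*. *Gadd45a*, a growth arrest gene, was at 2.14, 34.5 and 26.1 CPM in KO noCys and at 1.65 to 4.87 CPM elsewhere, so replicate 1 lay within the range of the others (3.0 ± 0.83, called in 7). *Myc* rested on 1 control library: WT CTR replicate 1 was at 53.8 CPM and the other 2 at 3.79 and 3.72 CPM. Its interaction was 3.13 with that library and 0.69 (adjusted p = 0.580) without it.

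**Figure D5:**
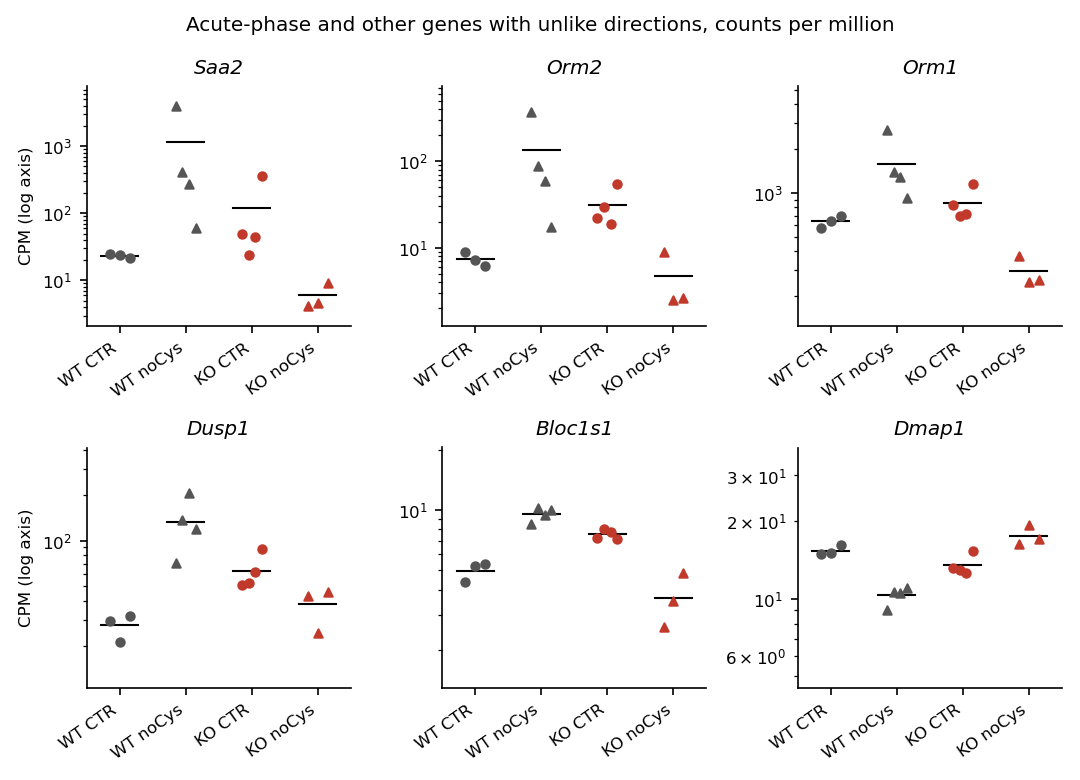
CPM on a log axis in each of the 14 libraries for *Saa2*, *Orm2*, *Orm1*, *Dusp1*, *Bloc1s1* and *Dmap1*, with grey for WT, red for KO, circles for CTR, triangles for noCys and a bar for the group mean. The diet moved WT and KO apart in each panel, and WT noCys is spread from 60.5 to 3950 CPM in *Saa2*.

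Cytochromes P450 of families 1 to 3, which oxidize drugs and steroids, were split, with 3 larger and 4 smaller of 32, against 3.56% and 3.88% of all genes, and a median of −0.20. The number smaller was 2 without any 1 of 8 libraries and 5 without KO noCys replicate 1, and voom called 7. *Cyp2a5*, a coumarin hydroxylase that NRF2 can induce, was at 2556, 2440 and 2590 CPM in KO noCys, 1038 to 1360 CPM in KO CTR and 634 to 884 CPM in WT (1.13 ± 0.19). *Cyp3a59* (2.06 ± 0.45) and *Cyp1a2* (1.36 ± 0.33) were larger too. *Cyp2d40* was at 14.9, 11.6 and 15.7 CPM in KO noCys against 40.8 to 53.7 CPM in KO CTR and 54.7 to 101 CPM in WT (−2.18 ± 0.23, adjusted p = 1.82e-05). *Cyp2f2* had −1.06 ± 0.21. *Cyp2c29* and *Cyp3a11* had −0.90 and −1.0 and were called in 3 and 4 of the 14 fits.
In the fit of all libraries, several lists of liver function held a single called gene, smaller in the KO, against 3.88% of all genes. *Ghr*, the growth hormone receptor, was at 210, 154 and 195 CPM in KO noCys and at 375 to 509 CPM elsewhere (−0.92 ± 0.18), the 1 of 21 genes of its axis. The number smaller was 2 without WT noCys replicate 4 or KO noCys replicate 1, 3 with DESeq2 and 5 with voom. The median of that list was −0.62, and 17 of the 21 values were below 0. In the KO 10 of the 21 fell on the diet and 0 rose, against 9.59% and 10.6% of all genes, and in WT 1 fell. *Igf1*, its main target, had −0.31 ± 0.21. *Otc*, of the urea cycle, was at 223, 118 and 167 CPM against 339 to 445 CPM (−1.08 ± 0.21), the 1 of 14. With totals alone, DESeq2 or voom, 1 gene of the urea cycle list was larger in the KO, and voom called 3 smaller. *Pck1*, of gluconeogenesis, had −0.87, the 1 of 21, and was called in 11 of the 14 fits, and 2 genes of that list were smaller without KO noCys replicate 1. With totals alone, DESeq2 or voom, 1 gene of the gluconeogenesis list was larger in the KO. The same held without WT CTR replicate 3 or WT noCys replicate 4.
Bile acid genes gave 2 smaller and 0 larger of 18, with a median of −0.32 and 15 below 0, and in the KO 6 fell on the diet and 1 rose, against 9.59% and 10.6% of all genes. The number smaller was 5 without KO noCys replicate 1 and 1 without KO noCys replicate 3 or WT CTR replicate 1, 4 in the fit of the 4 groups and 5 with voom. The genes called in the fit of all libraries were the bile acid-CoA ligase *Slc27a5* (−1.08 ± 0.19) and the organic anion carrier *Slco1a4* (−1.42 ± 0.35). Proteasome subunits gave 1 larger of 31, *Psmd4* (0.50), and 0 without KO noCys replicate 3. The 16 circadian clock genes gave none, and 1 smaller without KO noCys replicate 1 or 4. Over all genes 3.56% were larger and 3.88% smaller.

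Among the enzymes that make and spend cysteine, none of 16 genes of the methionine cycle and transsulfuration passed, against 7.44% of all genes called, and their median was 0.01. Without KO noCys replicate 1 there was 1 smaller, and voom called 2. *Cbs*, the enzyme before cystathionine γ-lyase, was at 347, 415 and 368 CPM in KO noCys and at 312 to 440 CPM elsewhere, with an interaction of 0.17 ± 0.17. *Mat1a*, which makes S-adenosylmethionine, was higher on noCys in both genotypes, at 6468 to 8740 CPM in KO noCys against 4301 to 4940 CPM in KO CTR, and at 4355 to 6346 CPM in WT noCys against 2786 to 3743 CPM in WT CTR. The KO effect of 0.73 passed the test, the WT effect of 0.62 did not, and their difference was 0.10 ± 0.30.
Of 13 genes of cysteine breakdown and sulfide oxidation, 2 were smaller in the KO, against 3.88% of all genes, and 0 with libraries scaled by their totals alone. In the fits that left out 1 library the number was 0 in 8, including that without KO noCys replicate 3, 1 in 5 and 3 without KO noCys replicate 1. *Cdo1*, which commits cysteine to taurine and sulfate, was at 2376, 1642 and 1637 CPM in KO noCys against 1985 to 2947 CPM elsewhere (−0.65 ± 0.19, adjusted p = 0.0426), so replicate 1 lay within the range of the others. *Fmo1*, a monooxygenase of sulfur compounds, had −0.71 ± 0.21. They were called in 4 and 3 of the 14 fits that left out 1 library.
Of 12 genes of coenzyme A synthesis and breakdown, 1 was larger and 2 were smaller, against 7.44% of all genes called. *Ppcdc*, which decarboxylates the cysteine adduct of pantothenate, was at 32.8, 37.2 and 35.5 CPM in KO noCys against 15.1 to 29.7 CPM elsewhere (0.74 ± 0.20), and was called in 7 of the 14 fits. *Pank3*, a pantothenate kinase, had −0.80 ± 0.20 and lost its call without WT CTR replicate 2 or KO noCys replicate 3 or 4. *Nudt19*, which cleaves coenzyme A, had −0.60 ± 0.13 and was called in all 14 fits. *Vnn1*, a pantetheinase, had 0.13 ± 0.53, on KO CTR levels spread from 50.2 to 173 CPM.

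Among the remaining genes of largest size, *Arhgef2*, a guanine nucleotide exchange factor, was at 7.89, 40.3 and 25.6 CPM in KO noCys against 2.39 to 4.67 CPM elsewhere (2.65 ± 0.55), again with replicate 1 the lowest of the 3. *Fam25c* was at 2.14, 4.19 and 5.27 CPM against 16.7 to 58.0 CPM (−3.05 ± 0.42). *Lad1* (2.70 ± 0.70) was not called without WT CTR replicate 3 or KO noCys replicate 3, and *Id2* (2.17 ± 0.56), an inhibitor of helix-loop-helix factors, not without WT CTR replicate 1 or KO noCys replicate 3 or 4.
*Selenbp2*, of a pair of near-identical selenium-binding proteins, was at 6.99, 2.91 and 13.2 CPM in KO noCys against 67.0 to 704 CPM elsewhere. Its interaction was −4.24 ± 1.19, called in 5 of the 14 fits, and its spread within groups was wide. *Enho*, the gene for the secreted peptide adropin, was at 1.69, 1.29 and 2.83 CPM in KO noCys, 2.75 to 16.6 CPM in KO CTR, 7.31 to 20.8 CPM in WT CTR and 13.4 to 43.5 CPM in WT noCys. Its interaction of −2.92 ± 0.74 was not called without WT CTR replicate 1 or KO noCys replicate 3.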

How the data were processed

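Liver poly(A) RNA was sequenced by the authors in 21 libraries. They aligned reads to GRCm38 with HISAT2 2.1.0 and counted them per gene with HTSeq 0.11.0, per the labels and the submitters' processing notes. The counts are as the authors deposited them, unscaled. Neither the annotation release nor the strand setting is given in the sources used here. The table has 1 further column, which no title fits, and it was left out. Of 46078 genes, 45229 were named through GENCODE M21, and the other 849 took 0.0536% of counts.

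Groups and replicate numbers came from the titles. Counts were tested with edgeR 4.0.16 (R 4.3.3): TMM scaling, genes kept by filterByExpr (minimum count 10, total 15), a model of all 6 groups over 21 libraries, which share 1 estimate of the spread, and the quasi-likelihood F test with Benjamini-Hochberg adjustment over 14370 genes. CPM values of single genes are TMM-scaled, and summed marker levels are scaled to library totals. SE was the log2 value divided by the square root of F. Fits with DESeq2 1.42.0, limma 3.58.1 voom with quality weights, other scalings, no filter, the 4 groups only, a replicate block and without each library in turn served as alternatives. The script was tested on simulated data. The titles call the replicates biological, and the study's methods give several animals per condition.

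Named genes were *Cth*; the 10 largest and 10 smallest interactions among called protein-coding genes above an average of 2 log2 CPM that kept their sign in every fit; up to 5 genes called in WT only and up to 5 called in opposite directions; and up to 4 called members of each list by adjusted p, plus members that define a pathway. Further called members were named after their values were seen. The contrast, the members and the lists were chosen with earlier results of these data known. Promoter sequences are from RefSeq (GRCm38.p6). Some members of the lists are counted but not reported by name here.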

Additional observations from a re-analysis of the deposited data

Results flagged for a closer look

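Each named gene was checked for a library far from the rest of its group, in groups of 4 (a gap to the nearest library above Dixon's critical share of the range). Of 154 such checks 7 stood out, and chance alone gives about 1 in 20. KO CTR replicate 4 was high in *Saa2* (357.9 CPM, others 23.95 to 49.37) and in *Saa1* (717.9 CPM, others 77.98 to 141.6). WT noCys replicate 1 was high in *Saa2* (3950 CPM, others 60.51 to 414.6) and *Saa3* (105.5 CPM, others 6.097 to 15.77) and low in *Otc* (358.8 CPM, others 418.5 to 429.3). *Aox1* was high in KO CTR replicate 2 (46.64 CPM, others 29.79 to 32.36), and *Ebp* in WT noCys replicate 2 (245.8 CPM, others 236.0 to 237.6). The *Saa* genes, *Otc*, *Aox1* and *Ebp* are described in the report with these libraries included.

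The diet effect differed between the genotypes in 1069 genes by the test of the difference itself. Among the named genes, *Dmap1* (0.956), *Orm1* (−2.829), *Orm2* (−7.038) and *Bloc1s1* (−1.957) passed the diet test in both genotypes with opposite signs.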

How the results depend on the processing

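The number of genes with an interaction was 1059 with RLE size factors, 1411 with DESeq2, 1258 in a fit of the 4 groups only and 863 with no filter on low counts, against 1069, and limma-voom with quality weights called 2179 (1051 larger and 1128 smaller in the KO). With no filter 341 were larger in the KO. Library totals alone called 1178, of which 855 were larger and 323 smaller in the KO (72.6% larger against 47.9% with TMM), and moved the median of all genes to 0.16. Leaving out 1 library gave 428 to 1399 genes, 197 to 667 of them larger and 231 to 732 smaller in the KO. Of the 1069 genes, DESeq2 called 1038, voom 1053 and the fit without KO noCys replicate 3 called 422. Of 77 genes chosen by the naming rule, none changed sign under any of these alternatives. For those named by size, for WT alone or for opposite directions, a kept sign without each library was a condition of naming. Other members named in the text near 0 changed sign: with totals alone *Fasn* was at 0.13, *Gclm*, *Uqcrc2* and *Ndufs1* at 0.14, *Ndufs3* at 0.15 and *P4hb* at 0.09, and with voom *Canx* was at −0.02 and *Mat1a* at −0.03. Of the 77, 77 kept their side of the threshold with DESeq2 and with RLE, 74 each with voom, totals alone and no filter, and 73 with the 4 groups only, where *Cth* passed. In the fits without 1 library 935 of the 1078 values did.

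Replicate numbers were shared between groups, but same-numbered libraries did not deviate together: over 18 same-numbered pairs the correlation of deviations ran from −0.0957 to 0.216 with a median of 0.01, and 3 were over 0.1, as were 10 of 55 other pairs. A replicate block called 817 genes, 387 larger and 430 smaller in the KO, and 7 of the 77 genes lost their call. With 3 or 4 libraries per group, low genes such as *Fgf21* and *Phgdh* had an SE above 1 on the log2 scale. So did others, such as *Saa2* and *Selenbp2*.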

Other observations

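Gene types outside the lists held some of the calls. Of 764 processed pseudogenes tested, 26 were larger and 40 smaller in the KO (8.64%), against 7.67% of protein-coding genes. Of 46 unprocessed pseudogenes 9 were smaller and 0 larger, against 3.88% and 3.56% of all genes. Reads of such copies cannot be told from those of their parent genes with certainty, and how shared reads were counted is not given. Of 8 mitochondrial tRNA genes 3 were smaller in the KO, against 3.88% of all genes, with a median of −2.41. The share of counts on mitochondrial genes was 3.77% to 5.51% in KO noCys and 4.49% to 7.67% in the other groups.

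Annotated miRNA genes *Gm24187* (4.33) and *Gm24270* (5.98) were called larger in the KO. Without WT CTR replicate 3 their values were 0.86 and 0.41, and neither was called. That is the library in which small and ribosomal RNA genes took 7.96% of counts. These genes were chosen after their values were seen.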
